A study of Homo sapiens with 4 samples.

Results

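The BCL2 family decides whether a cell releases cytochrome c from its mitochondria and dies by apoptosis, and 10 of its genes were examined in K562 leukemia cells given SF1-8, a small-molecule inhibitor of the UHM domain of U2AF1, or the solvent DMSO. The 10 genes were BCL2, BCL2L1, MCL1, BAX, BAK1, BID, BCL2L11, BBC3, PMAIP1 and BAD. They were chosen by symbol, taking for each the entry of the gene table with the highest mean count, and each symbol was named by 1 entry among the 62778 entries that name a gene. The 4 RNA-seq libraries came from K562, an established human erythroleukemia line, engineered to overexpress U2AF1 with the S34F mutation. Control libraries DMSO 1 and DMSO 2 were from cells given DMSO, and SF1-8 1 and SF1-8 2 from cells given SF1-8 at 30 μM for 48 h. Both groups carried the same overexpressed mutant, so no unmodified K562 cells enter the comparison. The table holds a single U2AF1 entry, in which the endogenous gene and the introduced copy cannot be told apart, and its mean FPKM was 11.5 in the DMSO group and 11.9 in the SF1-8 group. For U2AF2, the partner subunit, it was 25.0 and 23.6. The promoter of the introduced copy and any cloning of the line are not given in the sources used here. The labels do not say that the 2 libraries of a group were separate cultures, so the spread between them may be technical.

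Proteins of the family share short BCL2 homology (BH) segments and fall into 3 roles. Pro-survival members (BCL2, BCL-XL from BCL2L1, and MCL1) hold the other members in check, the effectors BAX and BAK1 form pores in the outer mitochondrial membrane, and the BH3-only members (BID, BIM from BCL2L11, PUMA from BBC3, NOXA from PMAIP1, and BAD) carry death signals by docking their BH3 helix into a groove of the pro-survival proteins or effectors. In erythroid cells BCL2L1 is the pro-survival gene best known for keeping cells alive as they mature, and K562 cells depend on the BCR-ABL kinase, which acts on the family through STAT5.

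The BH3 core is the contact that defines the family, so its coding sequence is shown for each gene on the coding strand, 5′ to 3′, from GENCODE version 29 (GRCh38). The 27 bases hold 9 codons, with the codon of the conserved leucine and that of the conserved aspartate in capitals.
BCL2: CTCcgccaggccggcGACgacttctcc
BCL2L1: CTGagggaggcaggcGACgagtttgaa
MCL1: TTAcgacgggttgggGATggcgtgcag
BAX: CTCaagcgcatcgggGACgaactggac
BAK1: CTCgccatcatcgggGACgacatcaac
BID: CTCgcccaggtcgggGACagcatggac
BCL2L11: TTGcggcgtattggaGACgagtttaac
BBC3: CTGcggcggatggcgGACgacctcaac
PMAIP1: CTCaggagatttggaGACaaactgaac
BAD: CTCcggaggatgagtGACgagtttgtg

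Each core lay within a single exon, read from the longest transcript that APPRIS, a catalogue of main isoforms, marks as principal and that holds the pattern. The pattern asked for leucine, then arginine, lysine or alanine, then arginine, glutamine, glutamate or isoleucine, then isoleucine, methionine, phenylalanine, valine or alanine, then glycine, alanine or serine, then aspartate, and it was drawn up from the known cores of these proteins. It was met by the longest complete coding sequence of 123 of 19489 genes, or 0.631%. At the level of bases the cores were diverse. Only 4 of the 27 positions had the same base in all 10 genes, and the 45 pairs shared a median of 15 bases. The closest pairs shared 19 of 27 bases, which were BAK1 with BID, BAX with PMAIP1, and BCL2L11 with BBC3.

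The BH1 segment separates the pro-survival members and effectors from the BH3-only members, and 4 codons of its core are shown with the tryptophan codon in capitals.
BCL2: aacTGGgggagg
BCL2L1: aacTGGggtcgc
MCL1: aacTGGggcagg
BAX: aacTGGggccgg
BAK1: aatTGGggccgt
Asparagine, tryptophan, glycine and arginine in a row were encoded by 5 of the 10 genes, and by 21 of 19489 genes overall (0.108%).

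Expression levels spread widely over the family. Levels are FPKM, which corrects for gene length and library depth and so allows genes to be set side by side. MCL1 had the highest mean over the 4 libraries (27.5), followed by BCL2L1 (20.7), BAK1 (20.1), BAX (10.1), BID (4.91), PMAIP1 (3.52), BAD (2.61), BCL2L11 (2.10), BBC3 (1.31) and BCL2 (0.415). BCL2L1 and BAK1 overlapped in their range over libraries, as did BID with PMAIP1, PMAIP1 with BAD, and BAD with BCL2L11. The other neighbours in this order did not overlap. Among the 26167 genes tested, MCL1 stood at percentile 96.4 and BCL2 at percentile 24.2 of mean FPKM. The gene that gives the family its name was thus the least abundant of the 10 genes examined. Some family genes outside the 10, such as BCL2A1 (0.362), had a lower mean.

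**Figure D1:**
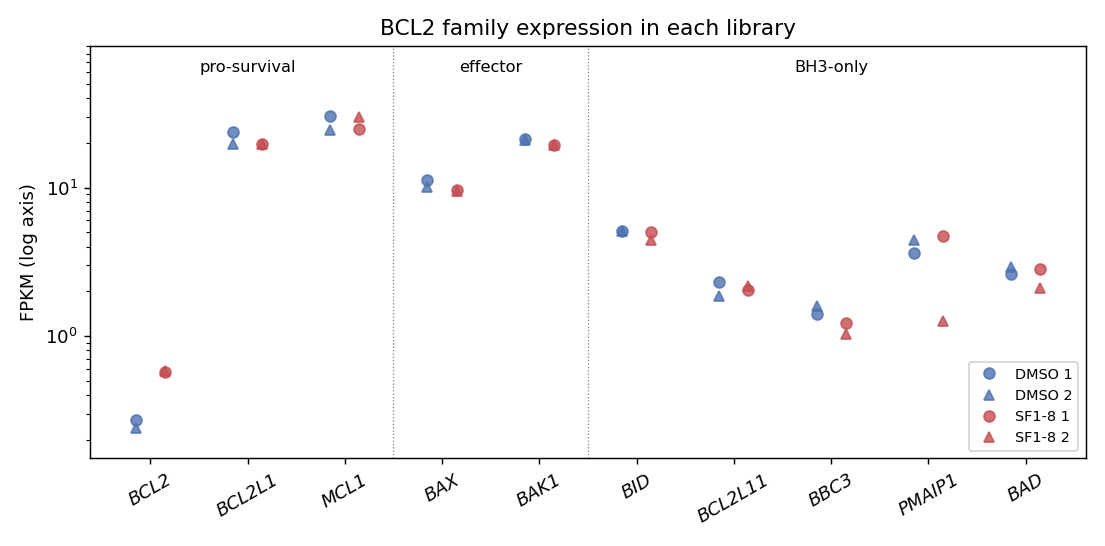
FPKM (log axis) of the 10 BCL2 family genes in each library, with blue for DMSO, red for SF1-8, circles for library 1 and triangles for library 2, and dotted lines between the 3 roles. BCL2 sits lowest, with both SF1-8 libraries (0.570 and 0.578) above both DMSO libraries (0.271 and 0.238), and PMAIP1 has a single low library at 1.27.

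SF1-8 was compared with DMSO with the quasi-likelihood test of edgeR, applied to estimated counts and adjusted over all 26167 genes by the Benjamini-Hochberg method. No member reached an adjusted p under 0.05, against 11 genes in all (0.0420%), 5 of them higher with SF1-8 (0.0191%). Without adjustment, 1 of the 10 members had a p under 0.05 in the edgeR test, BCL2, against a background of 4.33% of genes in either direction and 1.78% higher with SF1-8. DESeq2 called 1 member at its adjusted threshold, again BCL2, where it called 0.623% of all genes. The median log2 fold change was -0.11 for the 10 members and -0.011 for all genes. In bulk RNA a change in the share of cells and a change in RNA per cell cannot be told apart.

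BCL2, the founding inhibitor of apoptosis, was the member with the largest difference. Its FPKM was 0.271 and 0.238 with DMSO and 0.570 and 0.578 with SF1-8, library 1 first here and throughout. Both SF1-8 libraries lay more than 2-fold above both DMSO libraries, and the replicates of each group lay close together. The group means were 0.255 ± 0.0231 (SD, n = 2) in DMSO libraries and 0.574 ± 0.00578 (SD, n = 2) after SF1-8. The fold change from the counts was 2.29, with a 95% interval from 1.70 to 3.09 and a log2 value of 1.20 (standard error 0.169). In the edgeR test the unadjusted p was 0.000767 and the adjusted p 0.397, and BCL2 ranked 50 by p among the 26167 genes. DESeq2 gave the same size (log2 fold change 1.20) with an adjusted p of 0.000134, so the call differed between the tools. Over the 8 alternatives that refitted all 4 libraries, adjusted p ran from 0.000134 by DESeq2 to 0.946 by limma on log2(FPKM + 1). That scale draws genes with FPKM under 1 toward no change (log2 difference 0.33). On log2(FPKM + 0.1) limma gave a log2 difference of 0.93 and an adjusted p of 0.883. In edgeR the adjusted p was 0.695 with the replicate number as a block (log2 fold change 1.20) and 0.244 without a filter on low counts. Without each library in turn the log2 fold change stayed between 1.15 and 1.25.

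The BCL2 entry spans chr18:63123346-63320128 on the minus strand of GRCh38, the whole annotated gene, and its BH3 core lies at chr18:63318352-63318378. GENCODE places an antisense gene, AC022726.2, and a sense intronic one, AC022726.1, inside this span. Whether the authors' counting used strand is not given in the sources used here, so reads of AC022726.2 cannot be set apart from those of BCL2. The 3 complete coding transcripts of BCL2 encode 205 to 239 amino acids, and 3 of 3 hold both the BH3 core and the BH1 codons. The gene total therefore pools forms that differ elsewhere.

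BCL2 is abundant in lymphocytes, and the defining B-cell markers were at or near 0 in these libraries. MS4A1 was listed at 0 in 3 libraries and at 0.00718 FPKM in SF1-8 2. CD79A was listed at 0 in both DMSO libraries and had 0.0492 in SF1-8 1 and 0.0893 in SF1-8 2. The summed FPKM of the 10 lymphoid markers was 12.4 and 10.4 with DMSO and 9.90 and 9.85 with SF1-8, most of it from PTPRC and CD3D. Of the 5 that could be tested, 0 had an unadjusted p under 0.05 in the edgeR test, against 4.33% of all genes. For 8 monocyte and granulocyte markers the sum was 5.88 and 4.38 against 4.58 and 4.42, of which LYZ made up nearly the whole. CSF1R, the next most abundant, had a mean of 0.0849 in the DMSO group and 0.0904 in the SF1-8 group, and MPO, ELANE and S100A8 were listed at 0 throughout. Genes of fibroblasts and stroma lay lower with SF1-8, though none had an adjusted p under 0.05 in edgeR. DESeq2 called 3 of the 10 (COL1A2, COL5A1 and LUM), against 0.623% of all genes. Their summed FPKM was 34.8 and 26.1 with DMSO and 23.0 and 18.3 with SF1-8, 10 of 10 were lower in both SF1-8 libraries than in both DMSO libraries (20.0% of all genes), and 7 had an unadjusted p under 0.05 (2.54% of all genes in that direction). FN1 and SPARC, the most abundant of the list, were not among the 7, nor was COL1A1. For FN1 and SPARC the mean FPKM was 13.4 and 9.24 in the DMSO group and 11.3 and 7.76 in the SF1-8 group. COL1A1 had 5.39 and 2.60 FPKM in the DMSO libraries against 1.21 and 0.0982 after SF1-8, and its unadjusted p was 0.0634. Among the other collagens, mean FPKM in the DMSO and SF1-8 groups was 1.69 and 0.564 for COL1A2, 1.31 and 0.188 for COL3A1, 0.285 and 0.0897 for COL5A1, and 0.333 and 0.0969 for COL6A1. PDGFRB had 0.0416 and 0.00492. DCN had 0.0815 and 0.0161 in the DMSO libraries, 0.00328 in SF1-8 1 and a listed 0 in SF1-8 2. LUM had 0.170 and 0.0870 in the DMSO libraries and was listed at 0 in both SF1-8 libraries. Their part in the BCL2 family values was not tested. The 14 erythroid and K562 markers fell on 11 entries with a summed FPKM of 382.5 and 375.1 against 343.5 and 370.0. Of these entries, 0 had an unadjusted p under 0.05 in the edgeR test, against 4.33% of all genes. By FPKM, 5 of the 11 were lower in both SF1-8 libraries than in both DMSO libraries (20.0% of all genes). The number higher in both was 0 (14.2% of all genes). TFRC, the transferrin receptor, stood at 113 ± 2.13 (SD, n = 2) FPKM in DMSO libraries and 106 ± 14.0 (SD, n = 2) after SF1-8, and the shared entry of the alpha-globin genes HBA2 and HBA1 at 83.8 ± 4.11 and 77.8 ± 2.28 (SD, n = 2).

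BCL2L1, which encodes BCL-XL, had 23.7 and 19.8 FPKM in the DMSO libraries against 19.7 and 19.7 after SF1-8. DMSO 1 was high and the other 3 libraries were nearly level. The log2 fold change was -0.11 (SE 0.0931, edgeR adjusted p = 0.970), with a 95% interval in fold from 0.785 to 1.09. Leaving out DMSO 1 brought it to -0.017. A rise of more than 1.09-fold thus lay outside the interval, as did a fall of more than 1.27-fold. The entry covers chr20:31664452-31723989 on the minus strand, with the BH3 core at chr20:31721925-31721951, and the antisense genes ABALON and AL117381.1 lie within it. All 3 complete coding transcripts hold the BH3 core and 2 of 3 the BH1 codons, their proteins running from 170 to 233 amino acids. The shorter form without BH1 is of the kind known as BCL-XS, which promotes death, and it is counted in the same total.

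MCL1, a short-lived pro-survival protein, was the most abundant member, and its libraries did not sort by treatment. Its FPKM was 30.4 and 24.5 with DMSO and 24.9 and 30.0 with SF1-8, so each group held 1 high and 1 low library. The fold change was 1.02 with a 95% interval from 0.820 to 1.27 (edgeR adjusted p = 0.990). Its log2 value of 0.032 turned negative without DMSO 2 (-0.075) or without SF1-8 2 (-0.097). The entry, chr1:150560202-150579738 on the minus strand, reaches past the annotated MCL1 gene, which starts at 150574551, and its names include ADAMTSL4-AS1. GENCODE also places the protein-coding gene ADAMTSL4 in this span on the opposite strand, and RN7SL473P and RN7SL600P on the same strand, so the level given for MCL1 is that of the whole entry. The BH3 core of MCL1 lies at chr1:150578868-150578894. It is encoded by 3 of 3 complete coding transcripts and the BH1 codons by 2 of 3.

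Both effectors were slightly lower with SF1-8, without passing the test. BAX, which moves from the cytosol to mitochondria on activation, had 11.2 and 10.1 FPKM in the DMSO libraries against 9.67 and 9.47 after SF1-8. Both SF1-8 libraries lay below both DMSO libraries by a small margin. The fold change was 0.914 with a 95% interval from 0.770 to 1.09 (edgeR adjusted p = 0.970). BAK1, which resides in the outer mitochondrial membrane, had 21.1 and 21.0 FPKM in the DMSO libraries against 19.2 and 19.3 after SF1-8. Here too the groups did not overlap. For BAK1 the fold change was 0.932, with an interval from 0.803 to 1.08 (adjusted p = 0.970 by the same test). Neither difference passed the test, and for both a fall beyond 1.30-fold lay outside the interval. BAX was counted over chr19:48954815-48961798 on the plus strand, with its BH3 core at chr19:48955787-48955813, and BAK1 over chr6:33572547-33580293 on the minus strand, with its core at chr6:33575390-33575416. Of 6 complete coding transcripts of BAX, 4 hold the BH3 core, against 3 of 3 for BAK1. BAK1 exceeded BAX in every library, by 1.88-fold and 2.07-fold with DMSO and by 1.99-fold and 2.03-fold with SF1-8.

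The BH3-only genes were expressed at lower levels, and PMAIP1 varied most among them. PMAIP1, whose product NOXA binds MCL1, had 3.62 and 4.44 FPKM in the DMSO libraries against 4.75 and 1.27 after SF1-8. The SF1-8 libraries were 3.75-fold apart, with SF1-8 1 the highest of the 4 and SF1-8 2 the lowest. The log2 fold change of -0.40 (95% interval -1.93 to 1.13, edgeR adjusted p = 0.970) changed sign with the library left out. It was 0.26 without SF1-8 2 and -1.65 without SF1-8 1. PMAIP1 lies at chr18:59899996-59904305 on the plus strand, with its core at chr18:59902673-59902699.

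BBC3, which encodes PUMA, a binder of all pro-survival members, had 1.40 and 1.58 FPKM in the DMSO libraries against 1.21 and 1.04 after SF1-8. Both SF1-8 libraries were below both DMSO libraries. The log2 fold change was -0.38 (95% interval -0.90 to 0.14, edgeR adjusted p = 0.970), which did not pass, and it stayed negative without each library in turn, from -0.50 to -0.23. The entry covers chr19:47220822-47232766 on the minus strand, with the BH3 core at chr19:47226582-47226608, and the microRNA genes MIR3190 and MIR3191 lie in it. BCL2L11, the gene of BIM, gave 2.33 and 1.87 with DMSO and 2.03 and 2.17 with SF1-8 on the FPKM scale. The groups overlapped, with a fold change of 1.02 and an interval from 0.800 to 1.31 (adjusted p = 0.992). Its entry spans chr2:111119378-111168445 on the plus strand, the BH3 core lies at chr2:111150103-111150129, and MIR4435-2HG runs through it on the opposite strand.

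BID, which caspase-8 cleaves to link death receptors to mitochondria, had 5.06 and 5.10 FPKM in the DMSO libraries against 5.06 and 4.41 after SF1-8. SF1-8 2 was lower and the other libraries were level. The log2 fold change was -0.076 (95% interval -0.39 to 0.23, edgeR adjusted p = 0.970), and 0.028 without SF1-8 2. BAD, which survival kinases such as AKT hold inactive by phosphorylation, had 2.63 and 2.90 with DMSO and 2.82 and 2.11 with SF1-8. Again SF1-8 2 alone stood below the rest, and the log2 fold change of -0.14 (95% interval -0.64 to 0.37, adjusted p = 0.970) became 0.067 without it. BID was counted over chr22:17734138-17774495 and BAD over chr11:64269830-64284704, both on the minus strand, with cores at chr22:17739418-17739444 and chr11:64271625-64271651. GPR137 overlaps BAD on the opposite strand. SF1-8 2 held the lowest FPKM for 4 of the 5 BH3-only genes, BCL2L11 being the exception, and for 25.1% of all genes tested.

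The BH3-only genes also differ in how far a gene total tells of the BH3 core. The core is encoded by 4 of 11 complete coding transcripts of BID, 7 of 14 of BCL2L11, 2 of 4 of BBC3, 1 of 2 of PMAIP1 and 2 of 4 of BAD. The gene values pool the forms with and without it. Transcript values were not analysed here.

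**Figure D2:**
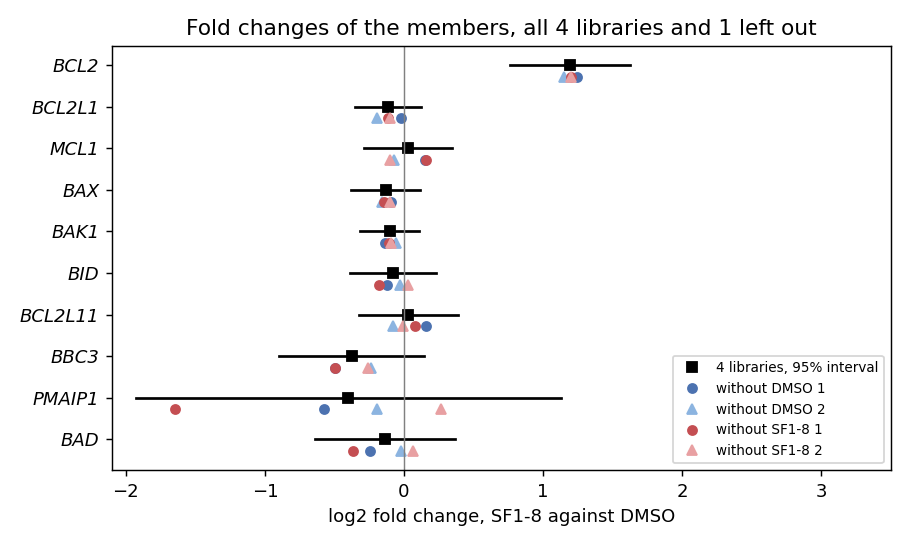
Log2 fold change of each gene, SF1-8 against DMSO, with black squares for the fit on 4 libraries, lines for its 95% interval and coloured points for fits with 1 library left out. The interval of BCL2 (0.77 to 1.63) is the single one that does not cross 0, and the points of PMAIP1 run from -1.65 to 0.26.

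Over the family, 7 of the 10 log2 fold changes were negative, against 51.6% of all genes. By FPKM the groups did not overlap for 6 members, against 34.2% of all genes. Of these, 5 were lower with SF1-8 (BCL2L1, BAX, BAK1, BID and BBC3), against a background of 20.0%, and 1 was higher (BCL2), against 14.2%. On counts scaled to library size with the TMM factors of edgeR the lower count was 4, without BID, against a background of 18.1%, and the higher count stayed at 1, against 17.3%. None of the lower members had an unadjusted p under 0.05 in the edgeR test.

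The balance of roles was set out within each library, where depth and scaling cancel. Pro-survival genes made up 53.5% and 48.6% of the summed FPKM of the 10 members with DMSO, and 50.2% and 55.9% with SF1-8. Effectors held 32.9% ± 1.60 (SD, n = 2) of the sum in DMSO libraries against 32.0% ± 0.156 (SD, n = 2) after SF1-8, and BH3-only genes 14.8% and 17.4% against 17.6% and 12.2%. The groups overlapped for each role. The ratio of pro-survival to effector FPKM was 1.56 ± 0.180 (SD, n = 2) in DMSO libraries and 1.66 ± 0.133 (SD, n = 2) after SF1-8, a difference smaller than the spread within either group. BCL2 was a minor part of the pro-survival sum in every library, at 0.498% and 0.536% with DMSO and 1.26% and 1.15% with SF1-8. BCL2L1 exceeded BCL2 by 85.1-fold ± 3.23 (SD, n = 2) in DMSO libraries and by 34.3-fold ± 0.350 (SD, n = 2) after SF1-8. MCL1 and BCL2L1 carried nearly the whole of the sum, MCL1 between 55.1% and 59.7%.

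**Figure D3:**
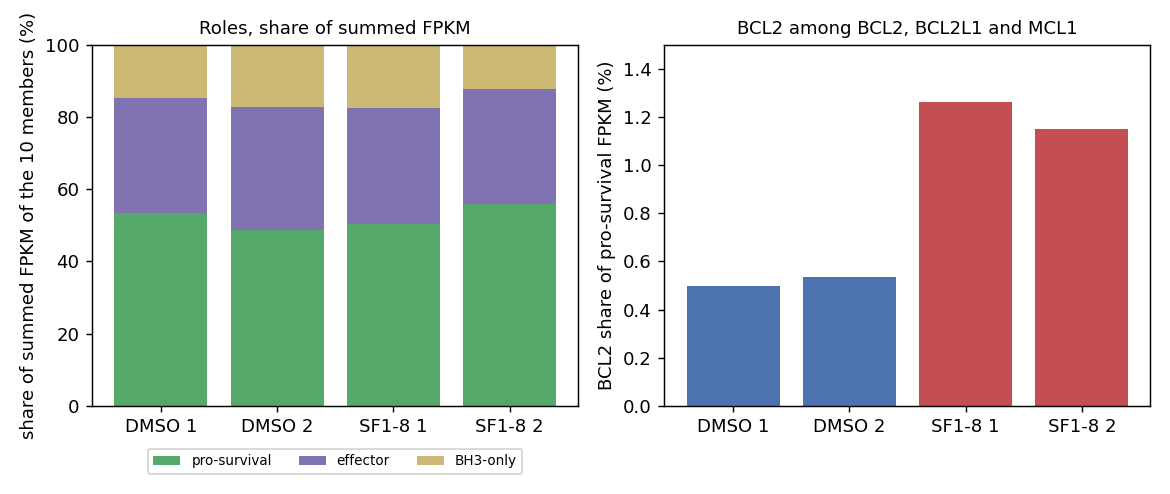
Left, share (%) of the summed FPKM of the 10 members held by pro-survival, effector and BH3-only genes in each library. Right, share (%) of BCL2 in the summed FPKM of BCL2, BCL2L1 and MCL1, which is 0.498 and 0.536 with DMSO and 1.26 and 1.15 with SF1-8.

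Beyond the 10 genes, 8 lists of related genes held 75 entries, of which 73 could be tested. None had an adjusted p under 0.05 in the edgeR test, and 6 of the 73 had an unadjusted p under 0.05, against 4.33% of all genes. Of the 6, 2 were higher (1.78% of all genes) and 4 lower (2.54%). DESeq2 called 2, CREB1 and DNM1L, against 0.623% of all genes. Other pro-survival genes gave no call. BCL2L2, the gene of BCL-W, shares an entry with PABPN1 and BCL2L2-PABPN1, which stood at 10.9 ± 2.16 (SD, n = 2) FPKM in DMSO libraries and 9.57 ± 0.0891 (SD, n = 2) after SF1-8. BCL2A1 had 0.346 and 0.377, and BCL2L10 was listed at 0 in all 4 libraries. Among 6 entries of effector and BCL2-like genes, BCL2L13 was the most abundant by itself (11.1 ± 1.31 in DMSO libraries and 10.7 ± 0.0199 after SF1-8, SD, n = 2). BCL2L14 was erratic, with 2.54 FPKM and a listed 0 in the DMSO libraries against 5.90 and 5.62 after SF1-8. Of 8 other BH3-only and BNIP genes, 0 had an unadjusted p under 0.05. BNIP3L, a mitophagy receptor of maturing red cells, led them at 21.2 ± 1.58 in DMSO libraries and 21.6 ± 0.696 after SF1-8 (SD, n = 2), beside BNIP3 at 6.47 and 6.95, while BIK, BMF and HRK stayed below 0.3 FPKM in every library.

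Mitochondrial partners of the effectors held 3 of the 6 genes with an unadjusted p under 0.05 in the edgeR test. These were 3 of the 11 tested in that list, against 4.33% of all genes. DNM1L, the dynamin-like GTPase that divides mitochondria, had 8.68 and 9.14 FPKM in the DMSO libraries against 5.76 and 5.57 after SF1-8. The groups lay far apart beside their spread, with a log2 fold change of -0.63 (SE 0.0908, edgeR adjusted p = 0.401, and 0.000916 by DESeq2). VDAC1, the most abundant channel of the outer membrane, had 69.8 and 67.6 with DMSO and 54.8 and 58.7 with SF1-8, a log2 difference of -0.25. VDAC2, the channel that holds BAK1 at the membrane, went the other way, with 47.2 and 38.7 against 50.8 and 52.3 and a log2 difference of 0.29. For both channels the adjusted p was 0.970 in edgeR. Of the other 8 genes of this list, which includes the tBID receptor MTCH2, none had an unadjusted p under 0.05, and the median over 11 genes was 0.034.

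Of the 10 listed released factors and apoptosome genes, which act after the pore opens, 0 had an unadjusted p under 0.05 in the edgeR test. In lists of this size a count of 0 is near the 4.33% of all genes. Here log2 fold changes ran from -0.054 to 0.18. CYCS, cytochrome c itself, had 62.3 ± 3.92 FPKM in DMSO libraries and 65.2 ± 5.11 after SF1-8 (SD, n = 2), and ENDOG, a mitochondrial nuclease, 24.6 ± 3.40 and 24.2 ± 2.61 (SD, n = 2). In the death receptor arm that leads to BID, 9 of 10 genes could be tested and 0 had an unadjusted p under 0.05, with FADD, the receptor adaptor, at 13.9 ± 0.977 and 13.5 ± 1.86 (SD, n = 2) and RIPK1, a kinase of the receptor complex, at 9.77 ± 0.241 and 10.7 ± 0.201 (SD, n = 2). FAS was listed at 0 in both DMSO libraries. Of the 12 genes that turn over or tether family proteins, 0 had an unadjusted p under 0.05, which is also near that share. The most abundant were DYNLL1, the dynein light chain that anchors BIM (38.1 ± 0.0868 and 36.6 ± 2.59, SD, n = 2), and HUWE1, a ubiquitin ligase of MCL1 (32.1 ± 1.03 and 33.9 ± 0.589, SD, n = 2).

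Transcription factors that act on the family held the remaining 3 of the 6 genes, which were 3 of the 16 tested, against 4.33% of all genes. For CREB1, an activator of BCL2 transcription, the FPKM was 4.07 and 3.56 with DMSO and 1.17 and 1.34 with SF1-8, and its log2 fold change -1.56 (edgeR adjusted p = 0.0556, just above the threshold). DDIT3, the stress factor CHOP, whose entry also names AC022506, had 15.6 and 13.2 with DMSO against 8.54 and 10.4 with SF1-8, and a log2 difference of -0.58 (adjusted p = 0.970). TP63 had 0.285 and 0.244 against 0.459 and 0.475, and a log2 difference of 0.84 (adjusted p = 0.970). STAT5A and GATA1, both activators of BCL2L1 in erythroid cells, were the most abundant of the 16 factors. STAT5A stood at 61.7 ± 3.76 FPKM in DMSO libraries and 62.3 ± 2.34 after SF1-8 (SD, n = 2), and its log2 fold change was 0.040. GATA1, the master erythroid factor and also one of the erythroid markers above, stood at 77.6 ± 2.19 and 75.9 ± 0.00557 (SD, n = 2), with a log2 fold change of -0.0050. The median over the 16 factors was 0.070.

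**Figure D4:**
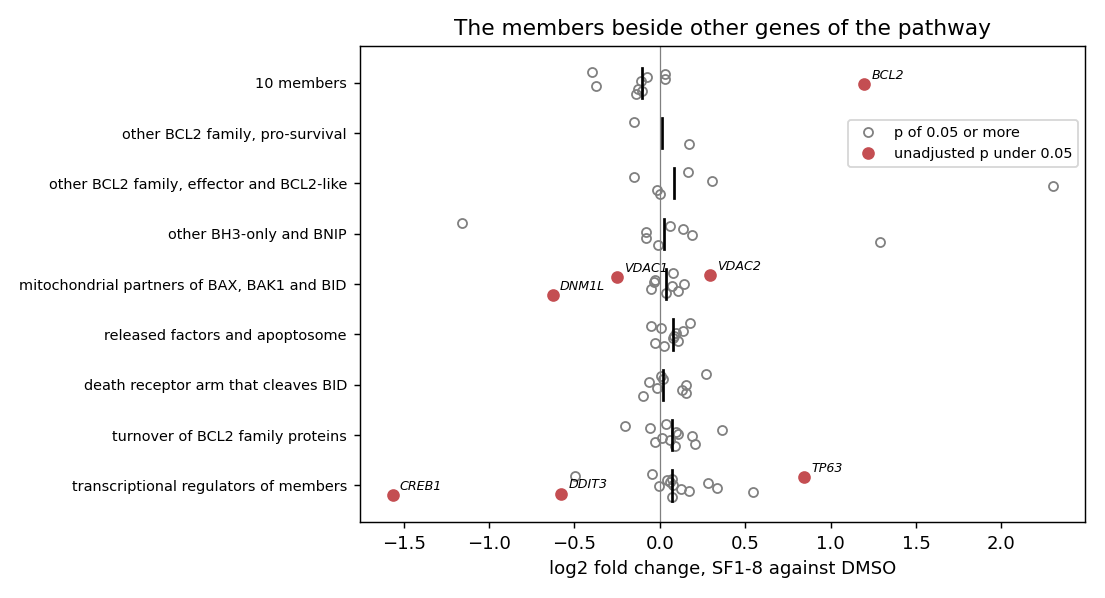
Log2 fold change, SF1-8 against DMSO, of the 10 members and of the tested entries of 8 related gene lists, with a black bar for each median, filled red points for an unadjusted p under 0.05 and open points for the rest. BCL2 lies at 1.20 beside a family median of -0.11, and list medians lie between 0.010 and 0.085.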

How the data were processed

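The authors deposited 1 table with FPKM and estimated counts of all genes in the 4 libraries, which were made from rRNA-depleted total RNA. Per the labels, the processing notes name cutadapt, FastQC, Bowtie2, HISAT2 and StringTie with build hg38, and their versions and roles are not given in the sources used here. GENCODE version 29 (GRCh38, the same build) was used here for annotation. The deposited FPKM values are normalized for length and depth, with 0.0001 in place of 0. The deposited estimated counts are whole numbers without normalization, 4 being the commonest above 0, so their counting error is unknown. The 2095 of 64873 entries without a gene name (0.372% of counts) were left out. Totals were 45522905 and 64387710 with DMSO, and 67554610 and 64305922 with SF1-8.

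Counts were scaled by TMM, filtered by filterByExpr and tested by edgeR 4.0.16 (quasi-likelihood, R 4.3.3). All 10 members passed the filter. Alternatives used DESeq2 1.42.0 and limma 3.58.1. The fit was tested on simulated data: of 200 genes changed 4-fold among 26167, 89.5% were found in this comparison. Members and lists were chosen with earlier results of these data known. Named genes were the members and, from each list, genes with an unadjusted p under 0.05 and the 2 most abundant, with BCL2L10, BCL2L14, COL1A1, BIK, BMF, HRK, MTCH2, FAS and the markers at or near 0 added after their values were seen.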

Additional observations from a re-analysis of the deposited data

How the results depend on the processing

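Over all genes, edgeR's quasi-likelihood test called 11 at an adjusted p under 0.05. DESeq2 called 163, no filter on low counts gave 31, limma gave 0 on log2(FPKM + 1), on log2(FPKM + 0.1) and without a filter (1424, 1604 and 1754 at an unadjusted p under 0.05), and leaving out 1 library gave 0 to 30, the 0 without DMSO 1 (1341 unadjusted). With the replicate number as a block edgeR called 0 (971 unadjusted), but the libraries share only a number (r = -0.059 between the differences within each group over 12883 entries). Members called stayed at 0 except with DESeq2, which gave 1. Listed genes called were 0, but 5 with DESeq2, 1 without a filter on low counts and 0 to 1 with 1 library left out, and the single gene was CREB1 in both, called without SF1-8 2 among the fits that left out a library. The cause was not tested. No member changed sign under the 8 settings that refitted the data with all libraries. With 1 library left out, log2 fold changes ran from -0.097 to 0.16 for MCL1, -0.18 to 0.028 for BID, -0.077 to 0.16 for BCL2L11, -1.65 to 0.26 for PMAIP1 and -0.37 to 0.067 for BAD, and the other 5 kept their sign. In those fits the lone library of a group is assumed to vary like the other group. Detection of changes smaller than 4-fold was not simulated.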
